A study of Mus musculus with 38 samples.

Results

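The collagen genes were taken as every gene of the deposited tables whose mouse symbol is made of Col, a type number, the letter a and a chain number, such as Col4a1 for chain 1 of type IV. The rule found 44 genes among the 29267 genes of the tables, and it used no measured value. They comprised 11 fibrillar collagens, 6 chains of collagen IV, 6 chains of collagen VI, 9 fibril-associated collagens (FACIT), 3 network collagens of types VIII and X, 2 multiplexins, 4 transmembrane collagens and 3 others. Of these, 17 reached a mean of at least 10 TPM (transcripts scaled for gene length and library size) in at least 1 group, 20 peaked between 1 and 10 TPM, and 7 stayed below 1 TPM in every group. The 7 were Col4a3, Col4a4, Col6a4, Col10a1, Col19a1, Col25a1 and Col28a1.

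Collagens are secreted or membrane-anchored proteins built from chains that wind into a triple helix, and each type is made from its own set of chains. Fibrillar collagens such as types I, II, III and V form the fibres of connective tissue and cartilage, whereas collagen IV forms the sheet-like network of basement membranes, the thin matrix under epithelia, including that of the early embryo. FACIT collagens decorate fibrils, collagen XVIII is a proteoglycan of basement membranes whose end fragment is endostatin, and collagen XIII is a membrane protein at cell contacts. The chains are hydroxylated, folded and trimmed by dedicated enzymes and chaperones before they assemble outside the cell. In the embryo fibroblasts and mesoderm are known for fibrillar collagens, and the notochord and cartilage for collagen II.

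The series compared mouse pluripotent cells in the naive state, like the early inner cell mass, and the primed state, like the later epiblast, and asked how the transcription factor c-Jun bears on the passage from primed to naive. It holds 38 RNA-seq libraries in 18 groups. Naive embryonic stem cells (ESC, 5 libraries, grown with 2i and LIF) and primed epiblast stem cells (EpiSC, 4 libraries, grown with Activin A and bFGF) were the reference states. ESC replicates 1 and 2 carry the strain label CBA/CaJ X C57BL/6J, whereas no strain is labelled for the others. kEpiSC (2 libraries) is 1 EpiSC line with an Oct4-GFP reporter and a lentiviral Klf4 transgene under a CAG promoter, so that all groups derived from it carry Klf4. For the primed to naive transition (PNT), kEpiSC were moved to iCD1 medium and collected after 1, 2 and 3 days (2 libraries each), without or with the JNK inhibitor SP600125 (JNKi, 2, 3 and 2 libraries), a drug against the kinase that activates c-Jun. kiPSC (2 libraries) are the naive cells at its end. EpiSC-like cells were also induced from wild-type or c-Jun-/- ESCs, the latter cut with a pair of guide RNAs, and are labelled iEpiSC (WT-iEpiSC, JunKO-iEpiSC) or kiEpiSC (WT-kiEpiSC, JunKO-kiEpiSC), with 1 library each. The labels do not spell out the k. The kiEpiSC lines of both genotypes were then cultured in iCD1 for 3 days, alone or together with JNKi (2 libraries for each genotype and medium). The labels do not say whether replicates were separate cultures, and the p-values below only reflect how much these libraries differ among themselves, which may be technical.

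Libraries held 2.165 to 15.945 M counts (M for mega). Jun read 5.01 to 14.6 TPM in the 6 JunKO libraries and 40.4 to 240 TPM in the 6 WT libraries, and Klf4 read 65.2 to 103 TPM in kEpiSC against 0.520 to 1.94 TPM in EpiSC. Klf4 also read 36.6 and 36.3 TPM in WT-iEpiSC and JunKO-iEpiSC, against 62.6 and 40.1 TPM in WT-kiEpiSC and JunKO-kiEpiSC, so Klf4 did not clearly set these lines apart, and they are pooled as primed lines below. The 7 naive markers summed to 6483 to 9988 TPM in ESC, 6851 to 8000 TPM in kiPSC, 187 to 477 TPM in EpiSC and 61.3 to 88.3 TPM on PNT day 3, so that the day 3 cells were not yet naive by these genes. ESC replicate 5 stood apart from the other ESC libraries in its collagens, and its values are given both with and without it below. ESC replicates 1 to 4 also had a gap between gene length and effective length of 73.5 bases, against 133 to 192 bases in all other libraries, a value that RSEM derives from read and fragment lengths, and this cannot be told apart from the other ways in which these libraries differ.

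The collagen repertoire was dominated by few genes. Col18a1, the collagen XVIII chain, was the highest collagen in every group's libraries except ESC replicate 5, both libraries of PNT day 1, replicate 1 of PNT day 2 and replicate 1 of PNT day 2 with JNKi. It read 54.9 to 105 TPM in ESC and 79.5 to 131 TPM in EpiSC, and its lowest value over all libraries, 18.4 TPM, was on PNT day 1. All 44 genes together summed to 136 and 167 TPM in kEpiSC and 133 and 150 TPM on day 1, then 230 and 239 TPM on day 2 and 537 and 547 TPM on day 3. The sum was 222 and 247 TPM in kiPSC, which lay between day 1 and day 3.

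**Figure D1:**
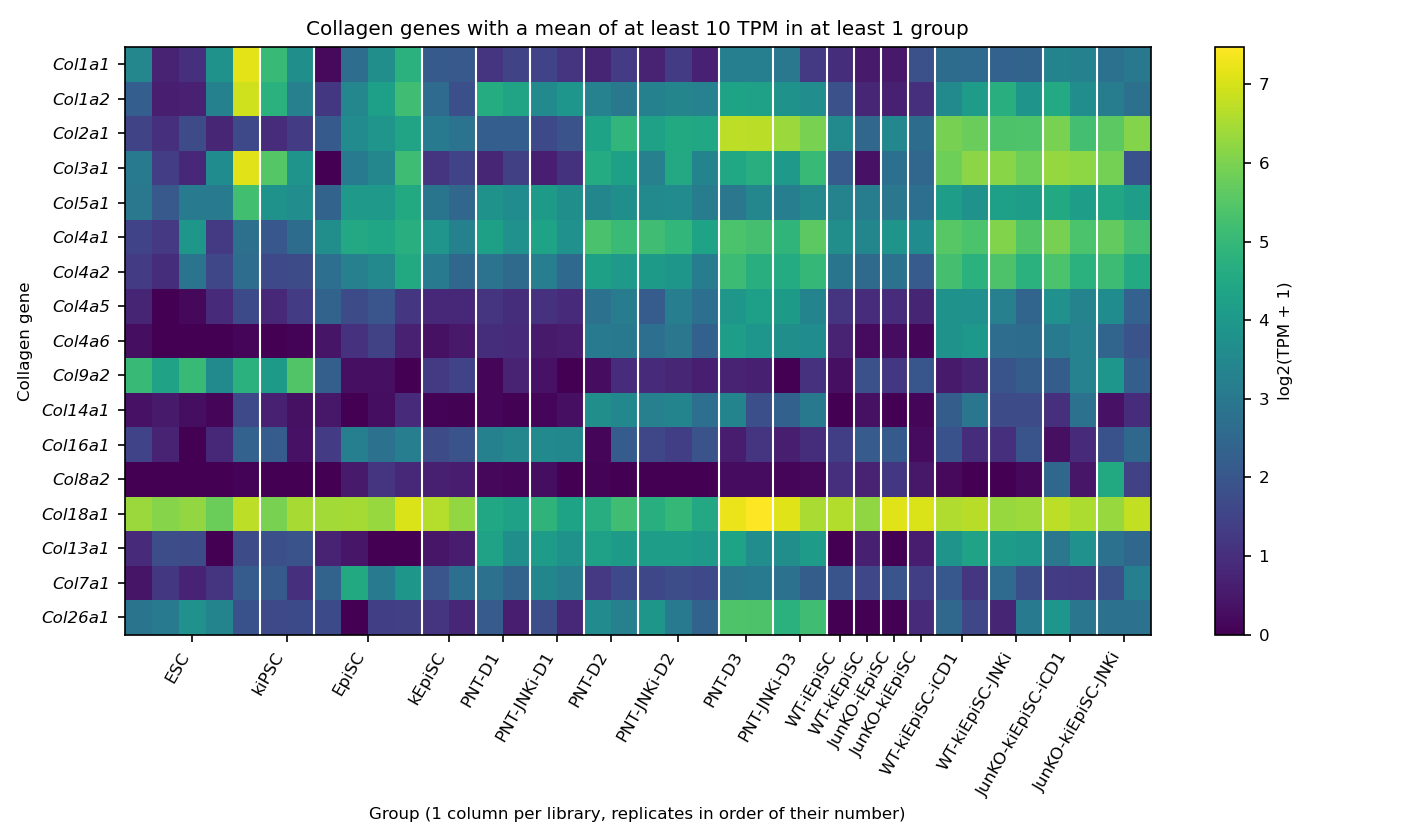
Levels of the 17 collagen genes with a group mean of at least 10 TPM, as log2(TPM + 1) by colour, with 1 row per gene ordered by class and 1 column per library, groups divided by white lines. Col18a1 is high in most libraries and lower on PNT days 1 and 2, the collagen IV genes and Col2a1 are higher from PNT day 2 onwards, Col9a2 is high in ESC and kiPSC, and ESC replicate 5 is the brightest column for Col1a1, Col1a2 and Col3a1.

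Many collagen genes changed over the course of the transition. On day 3 against kEpiSC, 20 of the 34 tested collagen genes rose and 3 fell (edgeR quasi-likelihood test, adjusted p under 0.05), while 50.6% of all genes tested were called, 25.2% higher and 25.4% lower. The median log2 fold change of the tested collagens was 1.55, against 0.00 over all genes. By class, all 4 tested collagen IV genes rose, as did 7 of the 10 tested fibrillar collagens, 2 of 7 FACIT collagens, 2 of 5 collagen VI chains and 2 of 4 transmembrane collagens. The genes that fell were Col6a5, Col8a1 and Col16a1. Of 10 alternative settings, Col8a1 lost its call in 7, among them each fit without 1 of the 4 libraries, and Col16a1 lost it in 5, among them the fits without kEpiSC replicate 1 or either day 3 library. In bulk RNA, more cells of a type and more RNA per cell cannot be told apart. Day by day, 13 collagens rose and 4 fell from kEpiSC to day 1 (46.3% of all genes called, 23.2% higher and 23.1% lower), 10 rose and 4 fell from day 1 to day 2 (16.5% called, 7.10% higher and 9.38% lower), and 8 rose and none fell from day 2 to day 3 (12.2% called, 6.13% higher and 6.10% lower). These comparisons share libraries with each other. The day 1 count was 10 without kEpiSC replicate 1 and 11 without day 1 replicate 2, the day 2 count was 9 without day 1 replicate 2, and the day 3 count against day 2 was 4 without day 2 replicate 1.

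**Figure D2:**
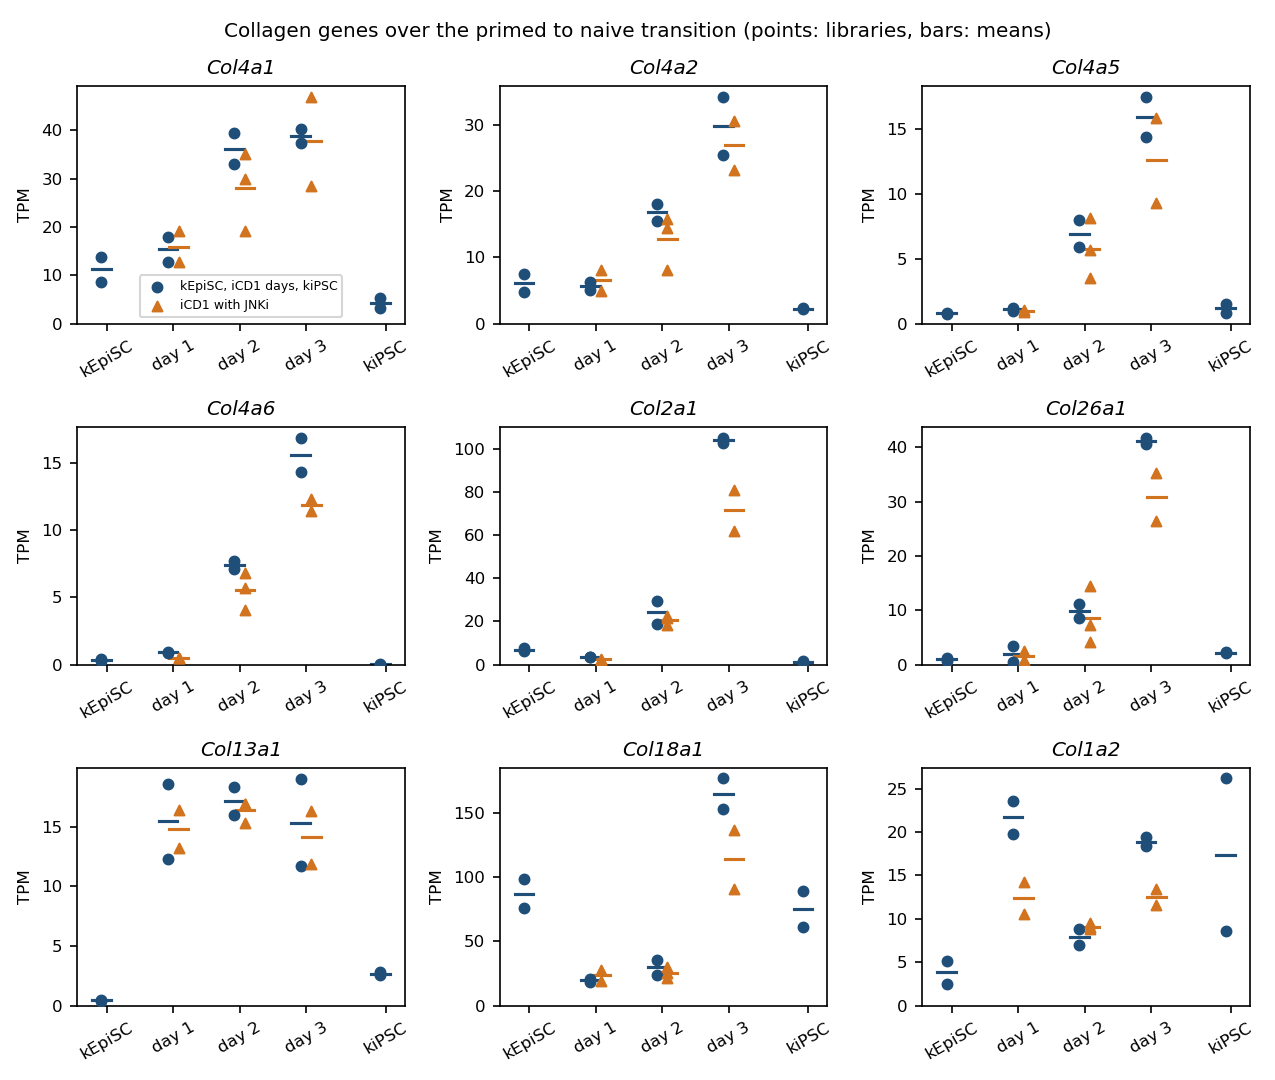
TPM of 9 collagen genes in kEpiSC, on days 1 to 3 in iCD1 (circles), on the same days with JNKi (triangles) and in kiPSC, with 1 point per library, bars at group means and a linear axis from 0 in each panel. The 4 collagen IV genes, Col2a1 and Col26a1 climb from day 2, Col13a1 is already high on day 1, Col18a1 dips on days 1 and 2, and Col1a2 peaks on day 1 and is lower on day 2.

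Collagen IV rose mostly after day 1. Col4a1, which with Col4a2 makes the common basement membrane network, read 13.8 and 8.70 TPM in kEpiSC, 17.9 and 12.8 TPM on day 1, 39.5 and 33.0 TPM on day 2 and 40.3 and 37.4 TPM on day 3. Its partner Col4a2 read 7.40 and 4.77, then 6.26 and 5.03, 18 and 15.5, and 34.2 and 25.4 TPM in the same order. For both genes the libraries of days 2 and 3 lay above all those of kEpiSC and day 1, but the share of all genes that did so was not counted. The log2 fold change from day 1 to day 2 was 1.29 ± 0.31 (SE, n = 2 against 2) for Col4a1 (adjusted p = 0.00836) and 1.57 ± 0.32 for Col4a2 (adjusted p = 0.00266). Of 10 alternative settings, Col4a1 lost this call in 3, among them the fits without day 1 replicate 2 or day 2 replicate 1. Col4a2 lost it in 1, the fit of all libraries. Over the whole 3 days Col4a1 and Col4a2 rose by 1.56 ± 0.31 and 2.07 ± 0.31 (adjusted p = 5.46e-04 and 4.29e-05).

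Col4a5 and Col4a6, whose chains form the collagen IV of smooth muscle and some epithelial basement membranes, started lower and rose further. Col4a5 read 0.810 and 0.770 TPM in kEpiSC, 1.23 and 0.960 TPM on day 1, 5.91 and 7.98 TPM on day 2 and 14.4 and 17.5 TPM on day 3. Col4a6 read 0.250 and 0.430, then 0.960 and 0.840, 7.69 and 7.13, and 16.8 and 14.3 TPM. For both genes no library of any day overlapped with those of the day before, but the share of all genes that did so was not counted. Both were called from day 2 to day 3, but each lost this call in 5 of 10 alternative settings. Among these was each fit without 1 of the compared libraries. The log2 fold change on day 3 against kEpiSC was 4.01 ± 0.33 for Col4a5 and 5.26 ± 0.31 for Col4a6 (adjusted p = 1.20e-07 and 3.09e-09). In kiPSC, Col4a1 read 3.12 and 5.27 TPM, Col4a2 2.13 and 2.28 TPM, and Col4a6 had 1 count, against 41 counts in kEpiSC. Col4a1 and Col4a2 fell in kiPSC against kEpiSC, by 1.57 ± 0.34 and 1.58 ± 0.35 on the log2 scale (adjusted p = 9.37e-04 and 0.00118). The remaining pair, Col4a3 and Col4a4, had too few counts to be tested.

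The collagen IV genes lie in pairs that start head to head, so their start regions are shown here. Col4a1 (GRCm38, chr8:11198423-11312826, minus strand) and Col4a2 (chr8:11312805-11449287, plus strand) overlap by 22 bases at their first exons in the annotation. The shared stretch, read on the plus strand from the RefSeq windows of GRCm38.p6 at chr8:11312805-11312826, holds the letters GGGCGG (capitals), the core of the GC box that Sp1 family factors bind.
Col4a1 and Col4a2 shared start: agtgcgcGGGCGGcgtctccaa
Col4a5 (chrX:141475385-141689234, plus strand) and Col4a6 (chrX:141165403-141474076, minus strand) are 1308 bases apart. The stretches just upstream of each start, both 5′ to 3′ towards the gene, are chrX:141475169-141475384 for Col4a5, with a CCAAT box in capitals, and chrX:141474077-141474326 on the minus strand for Col4a6, with the reverse complement of GGGCGG in capitals.
Col4a5 upstream: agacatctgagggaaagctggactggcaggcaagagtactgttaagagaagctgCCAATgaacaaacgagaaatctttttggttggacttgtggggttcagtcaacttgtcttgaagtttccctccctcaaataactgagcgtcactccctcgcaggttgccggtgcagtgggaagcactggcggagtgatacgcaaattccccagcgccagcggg
Col4a6 upstream: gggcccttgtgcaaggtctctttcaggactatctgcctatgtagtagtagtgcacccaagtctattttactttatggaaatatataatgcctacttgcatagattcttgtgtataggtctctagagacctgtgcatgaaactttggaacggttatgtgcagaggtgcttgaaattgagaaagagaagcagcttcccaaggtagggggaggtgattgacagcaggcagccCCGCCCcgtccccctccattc
The motifs are matches of letters and not measured sites.

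In both expressed pairs the levels of the partners went together across the libraries. For Col4a1 and Col4a2, Pearson's r of log2(TPM + 1) was 0.95 over 38 libraries, and for Col4a5 and Col4a6 it was 0.94. It was 0.26 for the third pair, Col4a3 and Col4a4, which both stayed below 1 TPM in every group. For comparison, r was 0.89 for the tandem genes Col6a1 and Col6a2, 0.66 for Col1a1 and Col1a2, which build the same protein from different chromosomes, and -0.14 for Col1a1 and Col4a1. These values describe points that share groups, and both genes of a point come from the same library. Since Col4a1 and Col4a2 overlap in their first exons and the counting is not known to use strand, a few reads could be assigned to either. The balance of the partners was not fixed. Col4a1 was above Col4a2 in 36 of the 37 libraries with at least 1 TPM of both, with a median ratio of TPM of 1.83, and the ratio was 1.82 and 1.86 in kEpiSC, 2.54 and 2.86 on day 1, 2.13 and 2.19 on day 2 and 1.18 and 1.47 on day 3. Ratios of day 3 thus lay below those of the earlier days without overlap, but how often the ratios of other gene pairs did so was not counted.

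**Figure D3:**
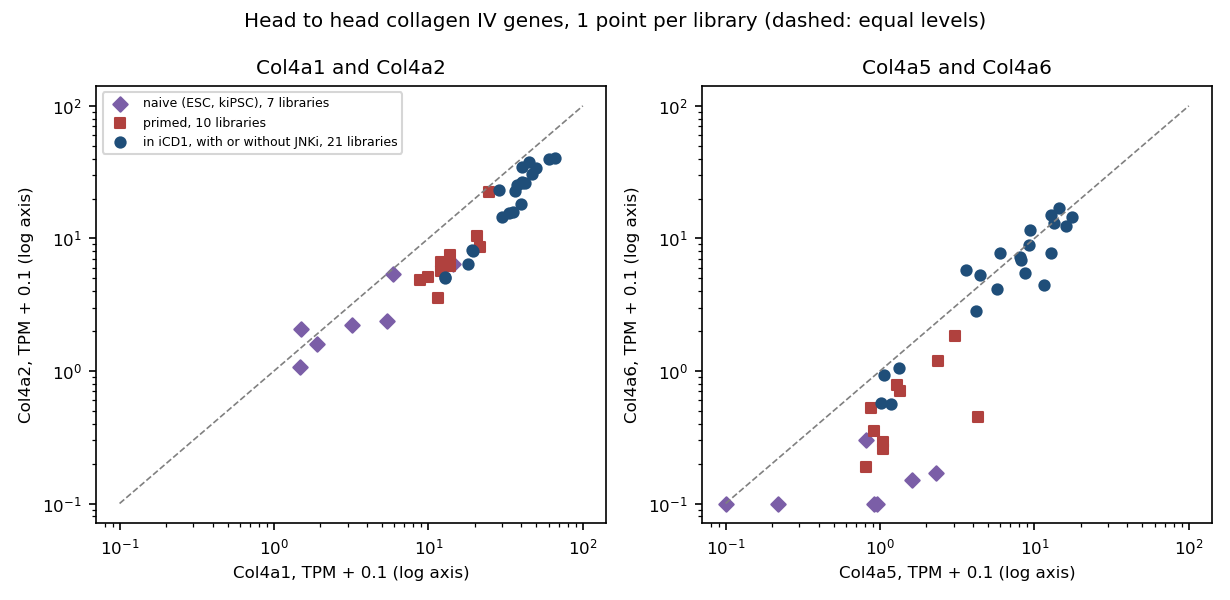
TPM of the head to head collagen IV genes, on log axes with 0.1 added, with 1 point per library for the 7 naive, 10 primed and 21 iCD1 libraries, and a dashed line of equal levels. Partners rise together in both panels, Col4a1 stays mostly above Col4a2, and most naive libraries lie at the low end, while ESC replicate 3, with 14.4 TPM of Col4a1, lies among the primed ones.

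Among fibrillar collagens, Col2a1, the collagen of cartilage and notochord (chr15:97975602-98004695), had the highest level on day 3. It read 7.64 and 6.23 TPM in kEpiSC, 3.69 and 3.69 TPM on day 1, 19.0 and 29.5 TPM on day 2 and 105 and 103 TPM on day 3. It fell first (log2 fold change -1.21 ± 0.27, adjusted p = 0.00196) and then rose by 2.84 ± 0.27 and 1.93 ± 0.24 (adjusted p = 3.62e-06 and 1.36e-04). In kiPSC it read 0.930 and 1.47 TPM. Col3a1, a fibre collagen of soft tissue, read 1.22 and 1.83 TPM in kEpiSC, 0.760 and 1.67 TPM on day 1, 23.0 and 18.2 TPM on day 2 and 21.3 and 24.6 TPM on day 3, and rose from day 1 to day 2 by 4.94 ± 0.55 (adjusted p = 1.51e-05).

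The chains of collagen I did not move together. Col1a2 read 5.16 and 2.53 TPM in kEpiSC, 23.6 and 19.8 TPM on day 1, 8.86 and 7.0 TPM on day 2 and 19.4 and 18.4 TPM on day 3. Col1a1 read 3.33 and 3.25, then 1.19 and 1.89, 0.710 and 1.44, and 8.30 and 8.45 TPM. Col1a2 rose on day 1 (2.13 ± 0.39, adjusted p = 3.37e-04), whereas Col1a1 had a log2 fold change of -1.21 with an adjusted p of 0.0917. The ratio of Col1a2 to Col1a1 in TPM was accordingly 0.778 and 1.55 in kEpiSC, 10.5 and 19.8 on day 1 and 2.18 and 2.34 on day 3. Col1a1 rose from day 2 to day 3 by 2.82 ± 0.62 (adjusted p = 0.00821), from 16 and 30 counts on day 2. Of 10 alternative settings, 2 lost this call, the fit of all libraries and the fit without day 2 replicate 1.

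Other classes followed courses of their own. Col13a1, the transmembrane collagen XIII, rose at once, from 0.380 and 0.500 TPM in kEpiSC to 18.6 and 12.3 TPM on day 1 (5.47 ± 0.34, adjusted p = 9.58e-09), and read 18.3 and 16.0 TPM on day 2 and 19.0 and 11.7 TPM on day 3. Col27a1, a fibrillar collagen of cartilage, likewise went from 0.850 and 0.330 TPM to 6.35 and 7.61 TPM on day 1 (3.66 ± 0.34, adjusted p = 5.92e-07). Col18a1 went the other way first, from 98.5 and 75.8 TPM to 20.8 and 18.4 TPM on day 1 (-2.28 ± 0.23, adjusted p = 1.45e-06). It read 24.1 and 35.3 TPM on day 2 and rose to 153 and 177 TPM on day 3 (2.33 ± 0.23 against day 2, adjusted p = 3.15e-05). Its libraries of days 1 and 2 all lay below kEpiSC, and those of day 3 all lay above, but the share of all genes with such a split was not counted.

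Col26a1, which encodes a secreted collagen-like protein, read 1.22 and 0.730 TPM in kEpiSC, 3.39 and 0.560 TPM on day 1, 11.2 and 8.54 TPM on day 2 and 41.7 and 40.7 TPM on day 3 (6.30 ± 0.46 against kEpiSC, adjusted p = 3.03e-08). In 55.9% of the libraries with any count of Col26a1, the expected count was not a whole number, that is, RSEM shared reads between it and other places. The share of its reads concerned was not measured, so its level is less certain. Col14a1, a FACIT collagen, had 3 counts in all on day 1 and 388 counts on day 2, a ratio of 164 after scaling for library size with a 95% counting interval of 55.7 to 799. It read 12 and 10.3 TPM on day 2 and 9.26 and 2.56 TPM on day 3. Col16a1, also a FACIT collagen, was higher on day 1 (8.74 and 10.1 TPM) than on day 2 (0.0700 and 3.49 TPM, from 1 and 14 counts). It fell by 2.16 ± 0.63 between them (adjusted p = 0.0280). Of 10 alternative settings, 4 lost this call, among them the fits without either day 1 library or without day 2 replicate 1. Col7a1, the anchoring fibril collagen of skin, fell from 6.03 and 4.21 TPM on day 1 to 1.35 and 2.11 TPM on day 2 and rose again to 6.87 and 7.41 TPM on day 3.

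The genes that make, bind and break down collagen moved in both directions over the same days, in which 25.2% of all genes rose and 25.4% fell. Of 32 tested genes of collagen synthesis and processing, 11 rose and 6 fell on day 3 against kEpiSC. Bmp1, a protease that trims procollagen ends, rose by 2.56 ± 0.26 on the log2 scale (adjusted p = 8.62e-07) and its enhancer Pcolce by 2.38 ± 0.27, whereas the related protease Tll1 fell by 4.91 ± 0.97 and the prolyl hydroxylase subunit P4ha1 by 1.87 ± 0.23. Of 7 tested collagen receptors, 1 rose and 4 fell, among them Ddr1 (-1.74 ± 0.20), a receptor kinase. Of 8 tested genes of collagen breakdown, 4 rose and none fell, with the largest changes for the inhibitor Timp2 (2.08 ± 0.16) and the membrane collagenase Mmp14 (1.90 ± 0.18). Of 14 tested other basement membrane genes, 3 rose and 3 fell: the laminin chain Lama1 rose by 3.01 ± 0.35, and Lamc1 fell by 1.06 ± 0.10.

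Markers of other cell types also changed over these days, some of them earlier than the collagen sum. The 12 fibroblast or feeder markers summed to 21.9 and 22.7 TPM in kEpiSC, 117 and 118 TPM on day 1, 145 and 155 TPM on day 2 and 144 and 163 TPM on day 3, and 7 of the 10 tested rose on day 3, when 25.2% of all genes rose. Of each day 3 sum, Fbln2 made up at least 41.1 TPM, Twist1 at least 36.5 TPM and Pdgfrb at least 34.4 TPM. Dcn went the other way, with at least 0.500 TPM in kEpiSC and at most 0.330 TPM on day 3, although it was higher on day 1. Dpt had no count on any of the days, and Lum had none on day 3. The 7 presomitic and paraxial mesoderm markers summed to 82.4 and 91.7 TPM in kEpiSC, 442 to 457 TPM on day 1 and 503 to 597 TPM on day 2. On day 3, where 5 of 7 rose against kEpiSC, they summed to 404 to 464 TPM. Chondrocyte markers summed to 4.28 and 4.95 TPM in kEpiSC and 23.3 and 28.1 TPM on day 3. Of the day 3 sum, Sox9 made up 17.2 and 20.6 TPM and Matn1 3.07 and 5.91 TPM. Acan went the other way, from 0.640 and 0.750 TPM in kEpiSC to 0 and 0.0600 TPM on day 3. The list of parietal and primitive endoderm, cells known for collagen IV, summed to 23.8 and 33.5 TPM in kEpiSC, 62.1 and 69.7 TPM on day 1 and 41.3 and 44.7 TPM on day 3, when Gata4 had no count. On day 1 Foxa2 made up 26.4 and 39.9 TPM and Pdgfra, also on the fibroblast list, 23.3 and 15.7 TPM. Pth1r made up 26.0 and 12.6 TPM on day 3. Gata6 went from 3.27 and 1.54 TPM in kEpiSC to 0.510 and 0.620 TPM on day 1. Sox17 went from 8.23 and 6.57 TPM to 2.30 and 3.53 TPM. The part of these cell types in the collagen changes was not tested.

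The EpiSC-like cells allowed the same 3 days to be followed in an independently made set of cells, with and without c-Jun. In WT cells 16 of 27 tested collagens rose and none fell on day 3 against the primed cells, where 28.9% of all genes were called (14.5% higher). In JunKO cells 16 rose and none fell as well, where 24.8% were called (13.5% higher). The median log2 fold change of the collagens was 2.89 in WT and 2.87 in JunKO, against 0.00 and 0.02 over all genes. Both counts rest on single primed libraries: without the WT-kiEpiSC library 1 collagen was called, and without the JunKO-kiEpiSC library 3 were called, since the primed group then holds 1 library of another line.

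Collagen IV was again among them. Col4a2 read 6.54 and 5.05 TPM in the WT primed lines and 37.4 and 26.6 TPM on day 3 in WT (2.89 ± 0.40, adjusted p = 5.46e-04). In JunKO it read 6.07 and 3.43 TPM in the primed lines and 39.7 and 26.1 TPM on day 3 (3.23 ± 0.40, adjusted p = 3.89e-04). Col4a6 went from 0.680 and 0.160 TPM to 13 and 14.9 TPM in WT (5.99 ± 0.51, adjusted p = 3.96e-05). In JunKO it had 3 counts in the primed lines and 201 on day 3, a ratio of 58.7 (95% counting interval 19.8 to 287). In both genotypes all day 3 libraries lay above all primed libraries for these genes, but the share of all genes that did so was not counted.

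The fibrillar collagens rose in these cells too, 9 of 10 tested in WT and 8 of 10 in JunKO. Col2a1 read 10.9 and 4.48 TPM in the WT primed lines and 60.1 and 53.6 TPM on day 3 (3.61 ± 0.34, adjusted p = 6.05e-05), and 10.3 and 5.19 TPM against 61.4 and 37.2 TPM in JunKO (3.02 ± 0.34, adjusted p = 2.19e-04). Col3a1 read 3.41 and 0.290 TPM in the WT primed lines and 56.0 and 71.0 TPM on day 3 (6.72 ± 1.57, adjusted p = 0.00923), and 5.58 and 4.54 TPM against 76.7 and 72.3 TPM in JunKO (6.43 ± 1.5, adjusted p = 0.0111). Col26a1 had no count in the WT primed lines and was at least 9.40-fold higher on day 3, against a floor of 3 counts over the group. Col18a1 was an exception, without a call in either genotype. It read 96.2 and 74.7 TPM in the WT primed lines and 95.9 and 101 TPM on day 3 (0.20 ± 0.16). In JunKO it read lower on day 3, with 138 and 133 TPM in the primed lines against 105 and 92.4 TPM (-0.45 ± 0.15, adjusted p = 0.0512). Fibroblast or feeder markers summed to 30.1 to 49.6 TPM in the primed lines and 96.8 to 176 TPM in the day 3 libraries. Twist1 made up at least 49.2 TPM of each day 3 sum, and it already read up to 36.9 TPM in the primed lines. Pdgfrb made up 13.7 to 35.1 TPM and Fbln2 13.4 to 29.4 TPM on day 3. Dcn and Dpt had no count on day 3 in either genotype.

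**Figure D4:**
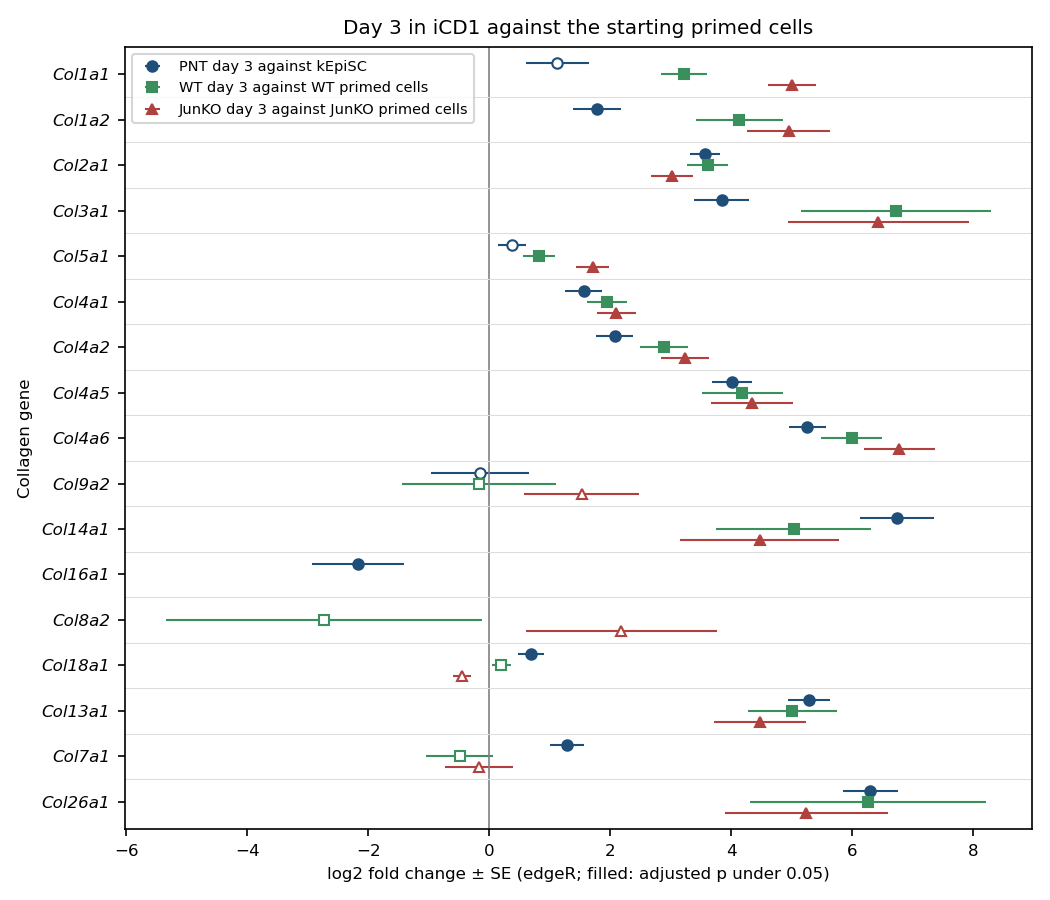
Log2 fold change ± SE of the 17 collagen genes on day 3 in iCD1 against the primed cells they came from, for the kEpiSC line (circles), WT (squares) and JunKO cells (triangles), with filled symbols at adjusted p under 0.05 and no symbol where a gene was not tested. The collagen IV genes, Col1a2, Col2a1, Col3a1, Col13a1, Col14a1 and Col26a1 are filled and to the right of 0 in all 3 sets, while Col18a1 and Col7a1 are filled in the kEpiSC line alone. For genes with 3 or fewer counts in the primed cells, the plotted value depends on the prior count of the fit.

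Against this, the c-Jun knockout itself changed no collagen gene beyond the test's threshold. In the primed cells 0 of 27 collagens were called by edgeR, 1 had an unadjusted p under 0.05, and DESeq2 called 1 and limma 0, with 0.357% of all genes called. That gene was Col18a1, at 138 and 133 TPM in JunKO against 96.2 and 74.7 TPM in WT (log2 fold change 0.65 ± 0.14, adjusted p = 0.0836). DESeq2 gave no adjusted p here for collagens other than Col2a1, Col3a1, Col4a1, Col4a2, Col5a1 and Col18a1. On day 3 in iCD1, 0 were called (4 with an unadjusted p under 0.05, none by DESeq2 or limma, 1.70% of all genes). With JNKi, 0 were called (8 with an unadjusted p under 0.05, 2 by DESeq2, none by limma, 0.920% of all genes, 0.626% higher and 0.293% lower). Without replicate 1 of JunKO cells with JNKi 4 would be called, and without replicate 2 of them 1.

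Some of these differences were large but uneven. With JNKi, Col3a1 read 70.5 and 56.1 TPM in WT and 59.4 and 2.68 TPM in JunKO replicates 1 and 2 (-1.53 ± 0.75, adjusted p = 0.340). Its log2 fold change was -5.42 without JunKO replicate 1 and -0.59 without replicate 2, so the missing call rests on an unlike pair of libraries. Col8a2, a collagen of the network beneath endothelia, was at 0.150 and 0 TPM in WT on day 3 and 4.81 and 0.360 TPM in JunKO, and with JNKi at 0 and 0.120 TPM in WT and 22.2 and 1.77 TPM in JunKO. With 1 count in WT and 176 in JunKO under JNKi, the ratio was 170 (95% counting interval 30.1 to 6759), and the adjusted p was 0.0778. The genotypes did not overlap, but the pair of JunKO libraries differed more than 10-fold. Col1a1 read 5.29 and 5.06 TPM in WT and 9.35 and 8.69 TPM in JunKO on day 3 in iCD1 (0.81 ± 0.23, adjusted p = 0.121). Col4a6 read 13 and 14.9 TPM in WT and 7.61 and 8.89 TPM in JunKO (-0.72 ± 0.24, adjusted p = 0.206). For neither gene did the genotypes overlap, but the share of all genes without overlap was not counted.

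The JNK inhibitor left the collagen genes of the kEpiSC transition without a call on any day. On day 1, 0 of 34 were called by edgeR (2 with an unadjusted p under 0.05, 0% of all genes called), on day 2 0 (1 with an unadjusted p under 0.05, 0.00672%) and on day 3 0 (4 with an unadjusted p under 0.05, 0%), and DESeq2 and limma called none on any day. The sum of all collagens on day 3 was 412 and 423 TPM with JNKi and 537 and 547 TPM without. Col2a1 read 81.0 and 62.0 TPM with JNKi against 105 and 103 TPM (-0.50 ± 0.23, adjusted p = 1.00), and Col18a1 137 and 90.5 TPM against 153 and 177 TPM (-0.50 ± 0.22, adjusted p = 1.00). For both genes the groups did not overlap, but the share of all genes without overlap was not counted.

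Col4a6, singled out here after its values were seen, read lower with JNKi in each of the 5 comparisons. In WT cells on day 3 it read 5.39 and 5.20 TPM with JNKi against 13 and 14.9 TPM without, and fell by 1.39 ± 0.25 on the log2 scale (adjusted p = 0.0445). It was the single collagen called there, where 0.484% of all genes were called, and 7 of 10 alternative settings lost the call, among them DESeq2, limma and each fit without 1 of the 4 libraries. In JunKO cells it read 4.38 and 2.73 TPM against 7.61 and 8.89 TPM (-1.27 ± 0.26, adjusted p = 0.125). In the kEpiSC transition the log2 fold change was -0.95 ± 0.38 on day 1, -0.44 ± 0.22 on day 2 and -0.37 ± 0.24 on day 3, each with an adjusted p of 1.00. The groups did not overlap in any of the 5. Groups this small can separate by chance, and the share of all genes that did so was not counted. Its neighbour Col4a5 read 8.63 and 4.37 TPM with JNKi against 13.2 and 12.7 TPM in WT cells (-1.08 ± 0.41, adjusted p = 0.285).

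In JunKO cells JNKi led to no call among the collagens (8 with an unadjusted p under 0.05, none by DESeq2 or limma, 0.0476% of all genes called). Without replicate 1 of JunKO cells with JNKi, 3 were called. The difference of the JNKi effect between the genotypes was called for no collagen either (2 with an unadjusted p under 0.05, none by DESeq2 or limma, 0% of all genes). For Col1a2, the levels were 10.7 and 16.6 TPM in WT without and 25.4 and 13.7 TPM with JNKi, and 22.8 and 11.7 TPM in JunKO without and 7.87 and 5.72 TPM with it (difference of log2 fold changes -2.19 ± 0.56, adjusted p = 0.832).

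Between the reference states, ESC against EpiSC, 4 collagens were higher and 7 lower in ESC among 31 tested, where 50.9% of all genes were called (27.1% higher, 23.8% lower). Higher in ESC were Col9a2, Col13a1, Col17a1 and Col26a1, and lower were Col2a1, Col4a1, Col4a2, Col4a6, Col6a5, Col7a1 and Col11a2. Of 17 alternative settings, Col6a5 lost its call in 8 and Col13a1 in 7, Col6a5 without ESC replicate 1, 2 or 3 or EpiSC replicate 2 or 4, and Col13a1 without ESC replicate 2 or 3 or EpiSC replicate 2, 3 or 4. Col11a2 lost it in 4. Col9a2, a FACIT chain known from cartilage, read 10.8 to 31.9 TPM in ESC with a median of 26.5 TPM, and 0 to 3.77 TPM in EpiSC (4.76 ± 0.72, n = 5 against 4, adjusted p = 1.35e-04). Col2a1, its partner in cartilage fibrils, went the other way, with 0.750 to 2.34 TPM in ESC and 3.34, 11.1, 13.8 and 19.7 TPM in EpiSC (-3.04 ± 0.45, adjusted p = 1.13e-04). Neither gene overlapped between the states, but the share of all genes without overlap was not counted. Col4a1 read 1.37 to 14.4 TPM in ESC and 12 to 24.7 TPM in EpiSC (-2.01 ± 0.59, adjusted p = 0.0121), with overlap through ESC replicate 3.

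The fibrillar collagens I, III and V could not be separated from a single library. Col1a1 read 9.95, 0.650, 1.06, 13 and 143 TPM in ESC replicates 1 to 5 and 0.130, 5.31, 11.9 and 26.3 TPM in EpiSC replicates 1 to 4. Col1a2 read 3.66, 0.560, 0.620, 8.71 and 121 TPM in ESC and 1.31, 9.98, 17.6 and 35.7 TPM in EpiSC. Col3a1 reached 139 TPM in ESC replicate 5 against 0.810 to 11.4 TPM in the other ESC libraries. Fibroblast or feeder markers summed to 149 TPM in ESC replicate 5, against 10.8 to 22.8 TPM in the other 4, and to 28.2, 56.0, 77.6 and 110 TPM in EpiSC replicates 1 to 4, which follows the order of their Col1a1 levels. EpiSC were kept on feeder cells or without them according to the study's methods, and the part of feeder cells in these levels was not tested. Without ESC replicate 5, 19 collagens were called, 4 higher and 15 lower, among them Col5a1 (-1.44), Col6a1 (-2.56) and Col6a3 (-3.74), which were not called with it. With replicates 3 to 5 only, 7 were called, and with replicate 5 as the only ESC library 11 were higher and 3 lower.

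**Figure D5:**
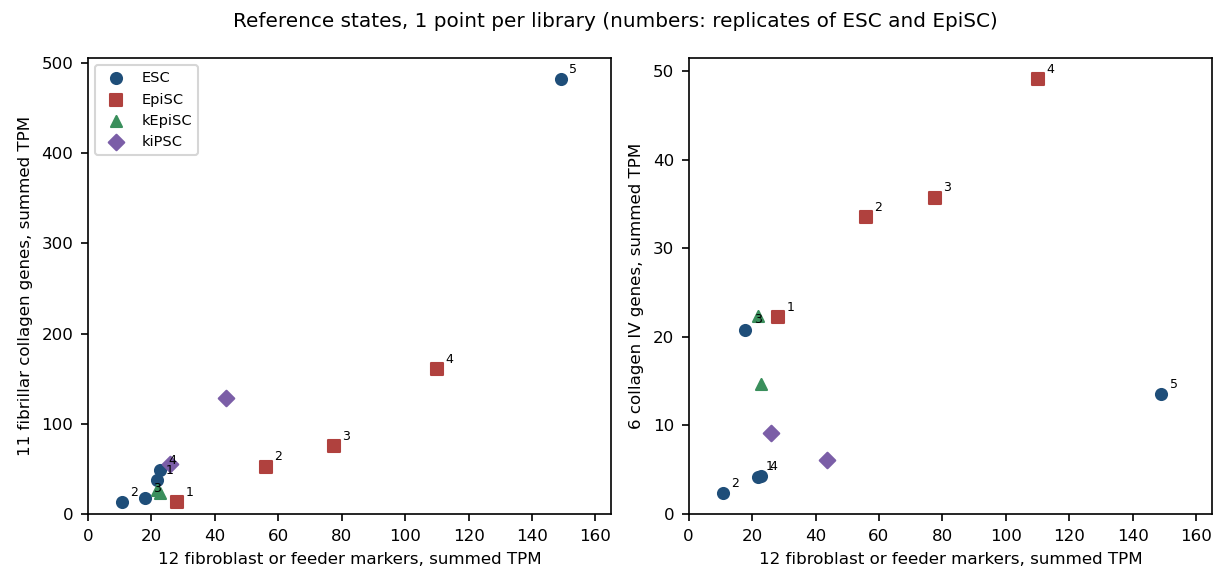
Summed TPM of the 11 fibrillar collagens (left) and of the 6 collagen IV genes (right) against the summed TPM of the 12 fibroblast or feeder markers, with 1 point per library of ESC, EpiSC, kEpiSC and kiPSC. ESC replicate 5 lies far above all others in fibrillar collagens and at 149 TPM of markers, but below all EpiSC libraries in collagen IV, and the EpiSC libraries are ordered alike on both axes of each panel.

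kEpiSC differed from EpiSC in 1 collagen, Col22a1, which read 0.200 and 0.440 TPM against 1.07 to 1.93 TPM (-2.63 ± 0.53, adjusted p = 0.0305, with 1.26% of all genes called). Its expected count was not whole in 65.8% of libraries. limma did not call Col22a1, nor did the fits without EpiSC replicate 2, 3 or 4 or without either kEpiSC library. kiPSC differed from ESC in none of the 31 (edgeR, DESeq2 and limma, with none at an unadjusted p under 0.05 and 0.144% of all genes called, 0.0934% higher and 0.0503% lower). Against the kEpiSC from which they came, 16 collagens were higher and 8 lower in kiPSC of 34 tested (57.5% of all genes called, 28.2% higher and 29.2% lower). Col9a2 read 15.7 and 42.9 TPM in kiPSC against 1.40 and 1.81 TPM in kEpiSC (5.25 ± 0.61, adjusted p = 2.76e-06). Col3a1 read 44.7 and 13.5 TPM against 1.22 and 1.83 TPM (3.95 ± 0.46, adjusted p = 2.36e-06) and Col1a1 32.1 and 12.3 TPM against 3.33 and 3.25 TPM (2.65 ± 0.52, adjusted p = 3.89e-04). The fibroblast or feeder markers summed to 43.5 and 25.9 TPM in these kiPSC libraries, and the library with more of them had more Col1a1 and Col3a1.

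Since c-Jun binds as part of AP-1, the promoter windows of the collagens were searched for the AP-1 letters TGANTCA, from 250 bases before to 50 after each RefSeq start. Of the 44 genes, 35 had a window (38 windows). The motif was in 1 of them, that of Col6a1, and in 7.81% of all 32851 windows. The stretch around it lies on the minus strand of chr10:76726118-76726144, with the motif in capitals beginning 90 bases before the RefSeq start. GENCODE starts the gene further out, at position 76726168, so the stretch lies inside the gene in that annotation.
Col6a1 start region: gctgatgctgTGACTCActcagctttg
GGGCGG on either strand was in 23 of the 38 collagen windows (60.5%) and in 35.7% of all windows, CCAAT or its complement was in 13 and in 37.4%, and TATAAA was in 5 and in 13.6%. These are matches of letters in short windows, and sites elsewhere in the genes were not searched. Col6a1 itself read 0.770 and 1.13 TPM in kEpiSC and 3.81 and 2.25 TPM on PNT day 3, and rose by 1.47 ± 0.43 between them (adjusted p = 0.00983). Of 10 alternative settings, 3 lost this call, among them the fits without kEpiSC replicate 1 or day 3 replicate 1.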

How the data were processed

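RNA was measured in 38 libraries of mouse cells by poly(A) RNA-seq on an Illumina NextSeq 500. Per the labels and the study's methods, the authors used bcl2fastq, Bowtie2 and RSEM on mm10 (versions not given in the sources used here), and the deposited gene tables hold RSEM expected counts and TPM for 29267 genes. The labels name a TruSeq kit and the methods a VAHTS kit. Symbols and coordinates came from GENCODE M21 (GRCm38). Here, the authors' expected counts were rounded and tested with edgeR 4.0.16 (TMM scaling, filterByExpr with a minimum count of 10, quasi-likelihood test, Benjamini-Hochberg adjustment over all genes tested, threshold 0.05) in 3 fits: the reference states (13 libraries, 13923 genes, 31 collagens), the transition (17 libraries, 14892 genes, 34 collagens) and the WT and JunKO cells (12 libraries, 12613 genes, 27 collagens, iEpiSC and kiEpiSC pooled as primed with a line term). 7 collagens were tested in none: Col4a3, Col4a4, Col6a4, Col10a1, Col15a1, Col19a1 and Col28a1. The deposited TPM served for levels between genes, and the authors' FPKM column was not used. Collagens with a group mean of at least 10 TPM are given library by library, others where called, and of other lists up to 4 called genes with the largest change. Jun and Klf4 check the groups.

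Alternatives were RLE scaling, DESeq2 1.42.0, no filter beyond 1 count, limma 3.58.1 on log2(TPM + 1), 1 fit of all libraries, subsets of ESC, a block for replicate numbers, and fits that leave out 1 library. The scripts were tested on simulated counts. The members and lists were chosen with earlier results of these data known. Where a group had 3 or fewer counts, the ratio of summed counts per library size is given with its exact 95% interval, and where it had none, a floor of 3 counts over the group. Such intervals cover counting error only. The labels do not say that a replicate number marks a shared culture or day, so the block is an alternative.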

Additional observations from a re-analysis of the deposited data

Results flagged for a closer look

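In 36 checks of groups of 4 or 5 libraries, in which chance alone marks about 1 in 20, 9 values stood apart from the rest of their group. ESC replicate 5 stood above the other ESC libraries in 7 of them. It read 143 TPM of Col1a1, 139 TPM of Col3a1, 121 TPM of Col1a2, 36.4 TPM of Col5a1, 2.12 TPM of Col14a1 and 0.05 TPM of Col8a2, which was at 0 in the others, and 729 TPM over all collagens. The gap to the nearest library was 0.819 to 1.00 of the group's range, against a critical value of 0.710. Its fibroblast or feeder markers summed to 149 TPM, also above the others, and their part in the collagen values was not tested. In EpiSC, replicate 4 stood above the others in Col18a1 (131 TPM) and replicate 1 in Col9a2 (3.77 TPM), with 0.848 and 0.939 of the range against a critical value of 0.829.

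In 119 checks of the direction of the JNKi effect between days, 2 genes had every library of one day on one side of the untreated cells and every library of another day on the other. Col14a1 had a log2 fold change of 0.53 with JNKi on day 1 and -0.52 on day 2, and Col7a1 of 0.39 on day 1 and -0.48 on day 3. The differences between the days were not tested, and Col14a1 had 4 and 3 counts on day 1.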

How the results depend on the processing

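Counts of called collagens stayed within 1.5 times the reported count for kiPSC against kEpiSC and PNT day 3 against kEpiSC under every alternative, and for kiPSC against ESC and JNKi on day 3 they stayed at 0. ESC against EpiSC gave 19 with the replicate block and 7 with ESC replicates 3 to 5 only, an alternative chosen after seeing the data. kEpiSC against EpiSC gave 2 with DESeq2, 0 with limma and 2 with all 38 libraries in 1 fit. PNT day 1 gave 9 with limma and 10 with all libraries, day 2 against day 1 6 with all libraries, and day 3 against day 2 14 without the filter and 3 with all libraries. Without the filter, JNKi gave 1 on day 1 and 1 on day 2, JunKO against WT gave 1 in primed cells, 2 in iCD1 and 6 with JNKi, JNKi gave 4 in WT and 6 in JunKO cells, and their difference gave 2. DESeq2 gave 1 for JunKO against WT in primed cells, 2 with JNKi, and 0 for JNKi in WT cells, where limma and all libraries also gave 0. All libraries gave 1 for JunKO against WT with JNKi. The replicate block gave 1 for JunKO against WT in primed cells, 1 in iCD1, 3 with JNKi, and 1 for JNKi in JunKO cells. Whether the numbers pair the libraries is not settled: deviations of same-numbered libraries correlated over 0.1 in 1 of 14, 10 of 50 and 6 of 12 pairs of the 3 fits, and by 0.145 to 0.249 between iCD1 and JNKi libraries of the same PNT day. Naming genes from 5 TPM would name 26 instead of 17. Of single genes, Col5a1 turned to 1.46 (adjusted p = 0.0498) in ESC against EpiSC with ESC replicate 5 as the only ESC library, and Col1a2 to -2.52 (adjusted p = 0.0253) in the same comparison with the replicate block. The cause was not tested.

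With each library left out in turn, the counts ranged from 8 to 19 for ESC against EpiSC (19 without ESC replicate 5), 0 to 1 for kEpiSC against EpiSC, 0 to 0 for kiPSC against ESC, 19 to 25 for kiPSC against kEpiSC, 10 to 13 for day 1, 9 to 13 for day 2 against day 1, 4 to 6 for day 3 against day 2 and 19 to 21 for day 3 against kEpiSC. They were 1 to 16 for WT day 3 (1 without the WT-kiEpiSC library), 3 to 16 for JunKO day 3 (3 without the JunKO-kiEpiSC library), 0 to 4 for JunKO against WT with JNKi, 0 to 3 for JNKi in JunKO cells, 0 to 1 for the difference of the JNKi effects, each of these highest without replicate 1 of JunKO cells with JNKi, and 0 in the other comparisons. Groups of 2 libraries limit the precision, and a lone library was assumed to vary like the others.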

Other observations

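Some collagens below 10 TPM also followed the transition. Col9a1, the partner of Col9a2 in collagen IX, read 0.0400 and 0.0900 TPM in kEpiSC, 0.840 and 0.910 TPM on day 1, 2.66 and 2.05 TPM on day 2 and 2.92 and 2.53 TPM on day 3, and rose by 4.74 on the log2 scale over the 3 days (adjusted p = 1.05e-05). Over the same days Col9a2 read 1.40 and 1.81 TPM in kEpiSC and 0.680 and 0.580 TPM on day 3, so that the chains of collagen IX were not at like levels. Col6a6, a collagen VI chain, had 1 count in kEpiSC and 121 counts on day 1, a ratio of 221 (95% counting interval 39.0 to 8808). Its expected count was not whole in 27.3% of the libraries with any count of it. The other chains Col6a1, Col6a2 and Col6a3 read 0.770 and 1.13, 0.360 and 0.700, and 0.0200 and 0.240 TPM in kEpiSC. Over the PNT days in iCD1 these chains read at most 3.81 TPM. In EpiSC, which are not the starting cells, they read 0.950 to 18.3, 0.200 to 8.60 and 0 to 22.5 TPM. Col17a1, a transmembrane collagen of epithelial attachment, read 1.10 to 1.86 TPM in ESC and 1.40 and 1.63 TPM in kiPSC, against 0 to 0.140 TPM in EpiSC.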
